A study of Mus musculus with 12 samples.

Results

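The BCL2 family genes examined here encode the proteins that decide whether mitochondria take part in programmed cell death. The members were fixed by name: the survival genes Bcl2, Bcl2l1, Mcl1 and Bcl2l2, the multidomain death genes Bax and Bak1, and the BH3-only death genes Bid, Bad, Bik and Bcl2l11. Of these 10 genes, 9 had annotated probes, 23 in all, among the 46632 probes of a bead array. Bax had no probe in the annotation used and was not analysed here. A probe was kept where at least 3 of the 6 lines detected it on both of their arrays (detection p under 0.01), which left 14 probes of 8 members among 7306 genes tested. Bak1, with 1 probe detected on 5 of 12 arrays, was not tested.

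The arrays measured total RNA of 6 untreated mouse cell lines derived from tumours. There were 3 lines with wild-type STAT3, a transcription factor switched on by cytokine and growth factor receptors, and 3 lines with a constitutively active form of it. Each line had 2 replicate arrays, and nothing in the labels says that these came from separate cultures, so tests between lines measure only a spread that may be technical. The sources used here do not state the strain, the age, the tumour tissue, how the active allele was made or whether a line is a clone. The culture medium was RPMI with foetal calf serum for all 6 lines.

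Survival proteins of the family hold the death proteins in check at the outer mitochondrial membrane. BH3-only proteins sense stress and either block the survival proteins or directly activate BAX and BAK, which then open pores that release cytochrome c and start the caspase cascade. In epithelial tumour cells Mcl1, Bcl2l1 and Bcl2 are often described as genes that STAT3 can induce. The array reads transcript amount only, whereas several of these proteins are regulated by cleavage (BID), phosphorylation (BAD) or rapid turnover (MCL1).

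Between 11002 and 12798 probes were detected per array. Across genes, the Pearson correlation was 0.993 to 0.998 within a line, and between lines it ran from 0.921 to 0.982. The epithelial keratin genes Krt8 and Krt18 were bright in every line, with line means from 13.59 to 14.00 and from 13.44 to 13.82 on the log2 scale. A further keratin gene, Krt19, stood at 4.59, 6.29 and 8.41 in wild-type lines 1 to 3. In constitutively active lines 1 to 3 Krt19 stood at 6.03, 9.25 and 9.84. The epithelial marker Cdh1 was dimmer than Krt8 and Krt18, at 8.70, 8.93 and 9.09 in wild-type lines 1 to 3. In constitutively active lines 1 to 3 Cdh1 stood at 8.33, 8.53 and 8.74. Epcam was detected on no array. No array detected any of the 5 leukocyte or 4 adipocyte markers with a probe, and 3 of 4 endothelial and 4 of 6 fibroblast markers were likewise undetected. The remaining endothelial marker, Kdr, had line means from 7.33 to 7.66. Of the remaining fibroblast markers, Pdgfra had line means from 6.85 to 7.35 and Col1a1 was detected on 2 arrays. The Stat3 transcript stood at 12.42, 12.80 and 12.76 in wild-type lines 1 to 3 and at 12.74, 12.27 and 11.50 in constitutively active lines 1 to 3. Raw signals of the brightest probe were higher in constitutively active lines (38552 to 44974) than in wild-type lines (30306 to 34189), a difference that quantile normalization removes. Slides and hybridisation dates are not in the sources used here. Genotype and any batch aligned with it cannot be told apart.

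The upstream sequences of 3 members are shown because they span the extremes of the results below: Bid and Bcl2 differed widely between lines and Mcl1 was the steadiest member. They are the 250 bases before the RefSeq start of each gene on build GRCm38.p6, printed in the direction of transcription with CpG pairs in capitals.
Bid, chr6:120916825-120917074, minus strand: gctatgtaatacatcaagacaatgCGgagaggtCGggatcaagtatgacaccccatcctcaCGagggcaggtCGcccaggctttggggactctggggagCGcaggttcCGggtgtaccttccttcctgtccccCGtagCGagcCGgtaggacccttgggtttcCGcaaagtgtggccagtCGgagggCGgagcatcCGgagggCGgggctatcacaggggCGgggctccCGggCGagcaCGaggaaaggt
Bcl2, chr1:106714291-106714540, minus strand: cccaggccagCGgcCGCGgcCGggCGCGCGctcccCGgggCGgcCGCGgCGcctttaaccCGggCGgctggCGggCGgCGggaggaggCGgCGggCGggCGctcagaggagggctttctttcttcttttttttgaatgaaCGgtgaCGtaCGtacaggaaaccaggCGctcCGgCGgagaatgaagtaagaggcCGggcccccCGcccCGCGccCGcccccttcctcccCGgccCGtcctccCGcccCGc
Mcl1, chr3:95658471-95658720, plus strand: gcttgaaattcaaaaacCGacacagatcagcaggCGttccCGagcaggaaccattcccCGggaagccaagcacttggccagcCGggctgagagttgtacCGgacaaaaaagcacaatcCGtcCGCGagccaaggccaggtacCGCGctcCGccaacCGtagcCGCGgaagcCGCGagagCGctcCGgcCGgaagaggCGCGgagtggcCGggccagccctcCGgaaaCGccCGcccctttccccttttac

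The Bcl2 stretch holds 36 CpG pairs at a GC content of 74.8%, Mcl1 26 at 64.4% and Bid 18 at 63.6%. The medians over all 32851 windows of the same table were 6 pairs and 52.4%. The palindromic STAT motif TTCNNNGAA, which reads the same on both strands, was searched in windows from 250 bases before to 50 bases after each start. It was in none of the 13 windows of the 9 listed members that have one, and in 8.30% of all windows. Bik had no window in the table.

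None of the 8 tested members passed the test between genotypes, and for none did the lines of the genotypes separate. By limma's moderated test of 3 lines against 3, 0 of 8 members passed the Benjamini-Hochberg threshold of 0.05 (0% of all genes tested), and 0 of 8 had an unadjusted p under 0.05, where 5.61% of all genes did. Line means of the genotypes overlapped for all 8 members. They did not overlap for 12.4% of all genes. Of the members 4 were nominally higher and 4 lower in constitutively active lines, with a median log2 difference of -0.03 against 0.01 over all genes. The smallest p that exact permutation of these 3 and 3 lines allows is 0.1. In lysates of whole cultures, fewer cells expressing a gene and less RNA per cell cannot be told apart.

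Among the survival genes, Mcl1 stood at 11.13 ± 0.15 with active STAT3 and at 11.20 ± 0.06 with wild-type STAT3 (SD over lines, n = 3 each; the same order and error hold for the members that follow). The log2 difference was -0.07, with a 95% interval from -0.36 to 0.22 (limma adjusted p = 0.964). Under median scaling in place of quantile normalization, which moves the median log2 difference of all genes to 0.21, the Mcl1 difference was 0.18. Bcl2l1, which encodes BCL-XL, stood at 8.88 ± 0.27 against 8.85 ± 0.43, with a difference of 0.03 (interval -0.60 to 0.65). Bcl2l2, which encodes BCL-W, stood at 11.11 ± 0.28 against 11.10 ± 0.17, with a difference of 0.01 (interval -0.42 to 0.45). Bcl2 stood at 9.66 ± 0.84 against 9.62 ± 0.12, with a difference of 0.05 and a wide interval (-0.95 to 1.04).

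The BH3-only genes did not pass either. Bad, whose protein binds BCL2 and BCL-XL, had the smallest p of the members, at 9.09 ± 0.16 against 9.38 ± 0.23 (log2 difference -0.28, interval -0.67 to 0.10, limma adjusted p = 0.896). Bid stood at 9.16 ± 0.45 against 9.05 ± 0.87 (difference 0.11, interval -1.03 to 1.25). Bik stood at 8.32 ± 0.96 against 8.49 ± 0.16 (difference -0.17, interval -1.31 to 0.96). Bcl2l11, which encodes BIM, stood at 6.72 ± 0.29 against 6.81 ± 0.37 (difference -0.08, interval -0.66 to 0.49). Leaving out 1 line at a time turned the sign for 6 of the 8 members, the exceptions being Bad and Mcl1.

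**Figure D1:**
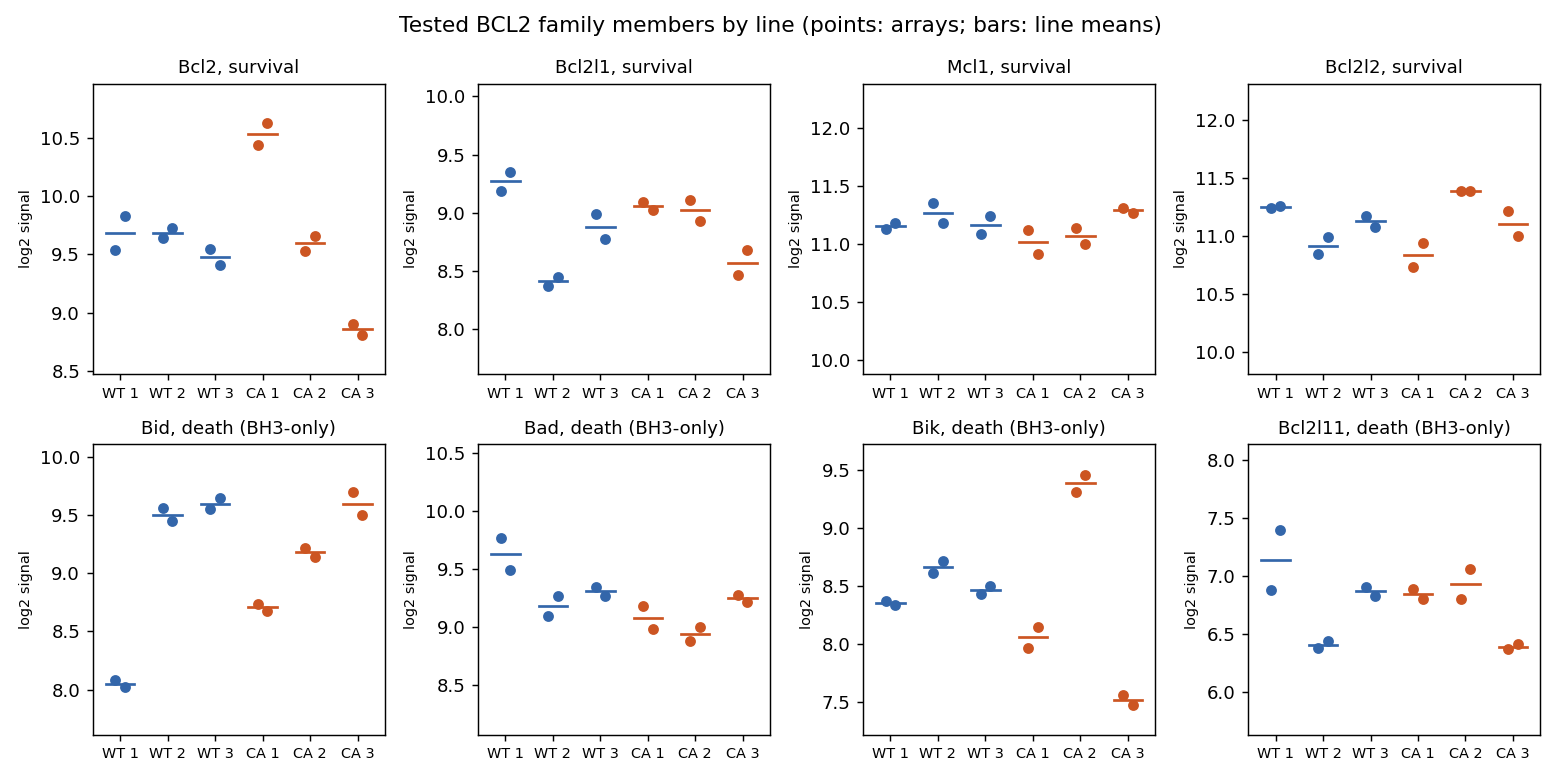
Log2 signal of the 8 tested members in each line (WT, wild-type STAT3; CA, constitutively active STAT3); points are the 2 arrays of a line and bars their mean, and each panel spans the same 2.5 log2 units. Bid is lowest in WT 1 (8.05), Bcl2 and Bik are lowest in CA 3 (8.86 and 7.52), and Mcl1 stays between 11.02 and 11.29.

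Differences between individual lines passed the test for most members. In a moderated F test over the 6 lines, with the 2 arrays of a line as the error, 7 of 8 members passed, against 77.6% of all genes, a share near that background. Mcl1 was the exception (limma adjusted p = 0.154, and 0.0921 to 0.543 over 19 alternatives). The wild-type lines differed for 5 of 8 members (46.4% of all genes) and the constitutively active lines for 6 of 8 (60.9% of all genes). For Mcl1 the F test among the constitutively active lines gave a limma adjusted p of 0.0761. It was 0.046 with the deposited log2 values and 0.503 with median scaling. Tested probe by probe, 12 of the 14 kept member probes passed over 6 lines, against 76.4% of all kept probes.

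The range of line means was above 1 log2 unit for 3 of 8 members, Bik, Bcl2 and Bid, and for 20.4% of all genes. The median range of the members was 0.81 against 0.58 over all genes. Bik spanned 1.87 log2 units (3.65-fold), and 7.16% of tested genes spanned at least as much. Bcl2 spanned 1.68 units (3.20-fold, 8.76% of genes) and Bid 1.55 units (2.93-fold, 10% of genes). The Bcl2 range is that of its tested probe, and its other detected probes spanned 0.80, 0.98 and 1.06 units. Mcl1 lay at the other end with 0.28 units, a range that 89.9% of genes reached or passed.

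**Figure D2:**
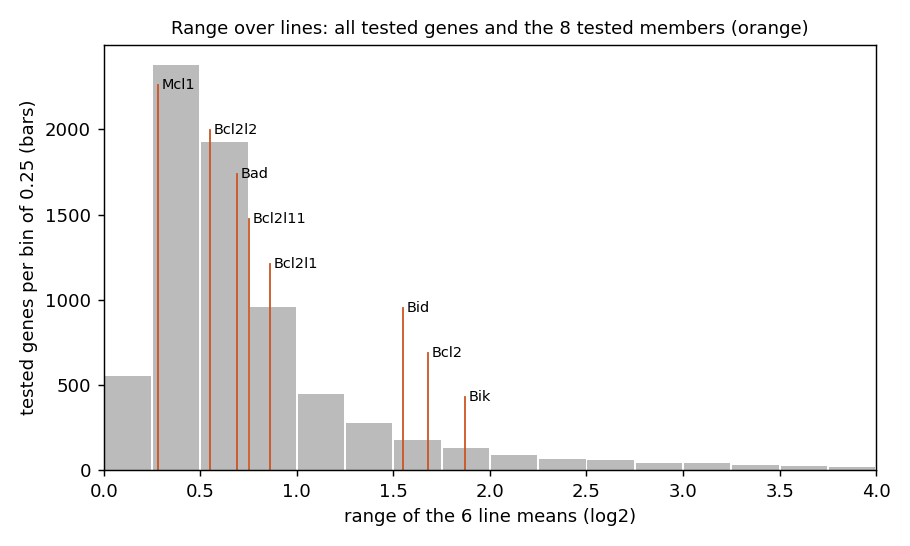
Range of the 6 line means on the log2 scale for all tested genes (grey bars, genes per bin of 0.25; the axis ends at 4) and for the 8 tested members (orange lines, whose heights carry no value). Mcl1 (0.28) lies below most genes, and Bid (1.55), Bcl2 (1.68) and Bik (1.87) lie in the upper tail.

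Each line was then set against the mean of the other 5, which gave 22 calls among 48 pairs of member and line. The 6 contrasts share arrays and are not independent. Wild-type line 1 had 4 members called (32.4% of all genes were), wild-type line 2 had 5 (39.0%) and wild-type line 3 had 1 (28.4%). Constitutively active line 1 had 4 members called (31.4% of all genes), line 2 had 3 (40.2%) and line 3 had 5 (52.7%). With median scaling 15 of the 48 were called. The share of all genes is not given here for these contrasts under that setting. Calls also fell over all genes in the F test over 6 lines, from 5669 in the main setting to 4193 with median scaling.

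**Figure D3:**
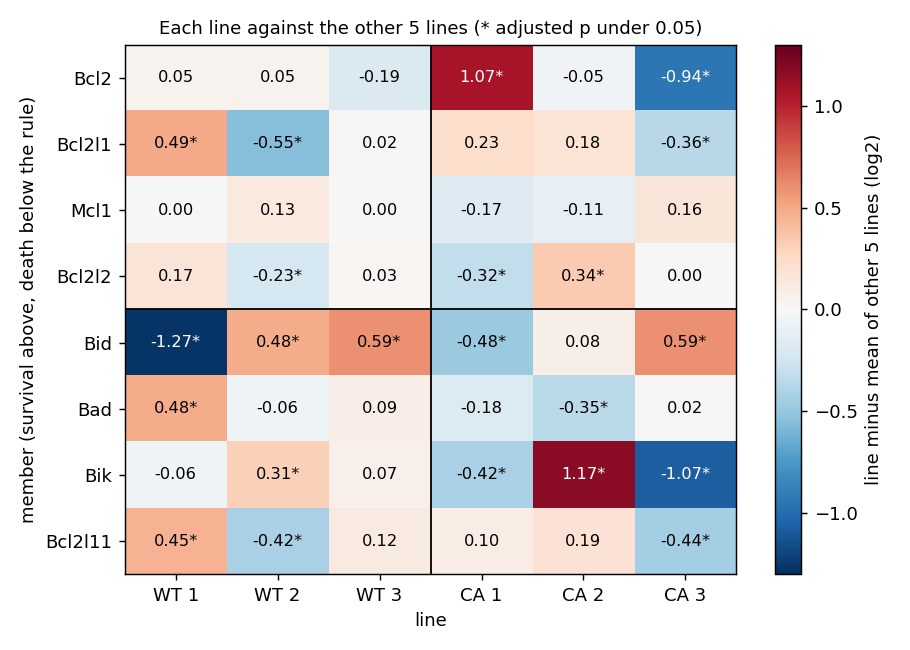
Difference of each line from the mean of the other 5 lines on the log2 scale (WT, wild-type; CA, constitutively active), with an asterisk where the limma adjusted p was under 0.05. The strongest departures are Bid in WT 1 (-1.27), Bik in CA 2 (1.17) and CA 3 (-1.07), and Bcl2 in CA 1 (1.07) and CA 3 (-0.94).

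Bid encodes the BH3-only protein that links death receptors to mitochondria after cleavage by caspase 8. Its arrays read 8.08 and 8.02 in wild-type line 1, 9.56 and 9.45 in line 2, and 9.55 and 9.65 in line 3. In constitutively active lines they read 8.74 and 8.68 in line 1, 9.22 and 9.14 in line 2, and 9.70 and 9.50 in line 3. Both arrays of wild-type line 1 lay below every other array, and those of constitutively active line 1 came next. Krt19 was lowest in the same pair of lines, and its part in the result was not tested. In wild-type line 1 Krt19 (4.59) lay at the level of Bcl2 probes detected on no array (line means 4.56 to 5.13). Bid was 2.41-fold lower in wild-type line 1 than in the other lines (log2 difference -1.27 ± 0.07, SE, n = 2 arrays per line, limma adjusted p = 6.30e-08), and between -1.34 and -0.96 over 19 alternatives. It was 1.51-fold higher in line 3 of either genotype (0.59 each, limma adjusted p = 0.000127 and 3.66e-05). The departures of wild-type line 2 (0.48) and constitutively active line 1 (-0.48) passed in the main setting and not with median scaling, where they were 0.17 (limma adjusted p = 0.439, range over the alternatives 0.000137 to 0.439) and -0.44 (0.086, range 0.000102 to 0.086).

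Bik encodes a BH3-only protein found largely at the endoplasmic reticulum. Its arrays read 8.37 and 8.34, 8.61 and 8.72, and 8.43 and 8.50 in wild-type lines 1, 2 and 3. They read 7.97 and 8.15 in constitutively active line 1, 9.31 and 9.46 in line 2, and 7.56 and 7.48 in line 3. The wild-type lines lay close together, and both extremes of the gene came from constitutively active lines. Bik was 2.25-fold higher in constitutively active line 2 than in the other lines (log2 difference 1.17 ± 0.07, SE, limma adjusted p = 4.58e-07) and 2.10-fold lower in line 3 (-1.07 ± 0.07, limma adjusted p = 2.69e-07). Over 19 alternatives these differences ran from 0.88 to 1.54 and from -1.18 to -0.71. The constitutively active lines differed for Bik (F test, limma adjusted p = 5.95e-08). The wild-type lines passed only narrowly (0.0477) and lost the call in 11 of 19 alternatives, with adjusted p from 0.0417 to 0.867. The lower level in constitutively active line 1 (-0.42) and the higher level in wild-type line 2 (0.31) also lost their calls with median scaling (limma adjusted p = 0.165 and 0.896; ranges 0.00059 to 0.165 and 0.00515 to 0.896), the latter also without replicate 2 of that line (0.098).

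Bcl2, the founding survival gene of the family, had 8 probes, of which 4 were detected on all 12 arrays and 4 on none. The tested probe ILMN_2682162, the brightest, is annotated to the RefSeq transcript NM_177410, and the other detected probes to NM_009741. The undetected probes ILMN_1215796 and ILMN_2597567 are annotated to NM_177410 as well, so probes of that transcript disagreed on its detection. Differences between the probes are therefore not read as differences between transcripts. The tested probe read 9.54 and 9.83, 9.64 and 9.73, and 9.55 and 9.41 in wild-type lines 1, 2 and 3. It read 10.44 and 10.63 in constitutively active line 1, 9.53 and 9.66 in line 2, and 8.90 and 8.81 in line 3. Constitutively active line 1 lay above and line 3 below all other arrays. The probe was 2.11-fold higher in constitutively active line 1 (log2 difference 1.07 ± 0.09, SE, limma adjusted p = 4.73e-06) and 1.92-fold lower in line 3 (-0.94 ± 0.09, 3.99e-06). Over 19 alternatives these ran from 0.56 to 1.17 and from -0.99 to -0.70, where 0.56 came from averaging the kept probes.

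The Bcl2 probes agreed on the low line and differed on others. All 4 fell in constitutively active line 3, by 0.42 to 0.94 on the log2 scale. In constitutively active line 1 the NM_009741 probes gave smaller differences, 0.53 for ILMN_2706514, 0.50 for ILMN_1249366 and 0.13 for ILMN_1249021, of which the last did not pass (limma adjusted p = 0.407, every kept probe tested). In wild-type line 2 these 3 probes were lower than in the other lines, by -0.64, -0.51 and -0.35, whereas the tested probe stood at 0.05 (limma adjusted p = 0.688). The wild-type lines accordingly differed by each NM_009741 probe (F test, limma adjusted p = 0.000196 to 0.00375) and not by the tested one (0.263). The gap between the tested probe and the mean of the other 3 was 1.12 and 1.37 on the arrays of wild-type line 2, 1.20 and 1.53 in constitutively active line 1, and 0.31 to 0.71 on the other 8 arrays. The size of such a gap reflects the probes and is no ratio of transcripts, and its change between lines was not tested.

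**Figure D4:**
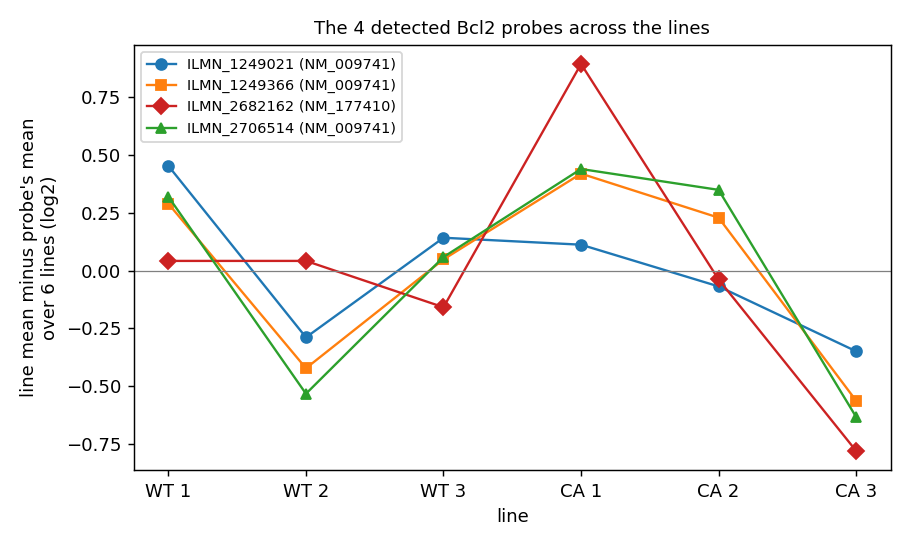
Line means of the 4 detected Bcl2 probes, each minus its own mean over 6 lines (log2; WT, wild-type; CA, constitutively active), with the RefSeq transcript of each probe in brackets. The tested probe (red) peaks in CA 1, the other 3 dip in WT 2, and all 4 are lowest in CA 3.

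Bcl2l1 and Bcl2l11, a survival gene and a death gene, had similar patterns over the lines, though not the same order of lines. For Bcl2l1 the line means ran 9.27, 8.41 and 8.88 in wild-type lines 1 to 3 and 9.06, 9.02 and 8.57 in constitutively active lines 1 to 3. Those of Bcl2l11 were 7.14, 6.41 and 6.87, and 6.85, 6.93 and 6.40. By their tested probes both were highest in wild-type line 1 and lowest in line 2 of the wild-type and line 3 of the constitutively active set. Their line means correlated at 0.97 by Pearson and 0.77 by Spearman (n = 6 lines that share arrays and normalization), given as a description. By Pearson this was the highest of the 28 member pairs, whereas by Spearman Mcl1 with Bid also reached 0.77. The lowest by Pearson was that of Bcl2l1 with Bid (-0.81).

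Against the other lines Bcl2l1 was 1.47-fold lower in wild-type line 2 (log2 difference -0.55 ± 0.09, SE, limma adjusted p = 0.000497), a call that held in 19 alternatives (-0.83, with median scaling, to -0.43). Its level was 1.40-fold higher in wild-type line 1 and 1.28-fold lower in constitutively active line 3 in the main setting. With median scaling these were 0.43 and -0.40 on the log2 scale and did not pass (limma adjusted p = 0.0863 and 0.0655; ranges over the alternatives 0.000192 to 0.0863 and 0.00217 to 0.101). Constitutively active line 3 also lost this call without its replicate 1 (-0.25). The 3 kept Bcl2l1 probes each varied over the 6 lines (limma adjusted p = 0.000335 to 0.0038), each with line 2 the lowest of the wild-type lines. They differed on the highest line: ILMN_2742557 read 8.49 in constitutively active line 1 and 8.30 in wild-type line 1. In constitutively active line 1 that probe passed (0.53, limma adjusted p = 0.00223, every kept probe tested) and the tested probe did not (0.23, 0.0782).

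Bcl2l11 was 1.36-fold lower in constitutively active line 3 (-0.44 ± 0.11, SE, limma adjusted p = 0.00611), 1.34-fold lower in wild-type line 2 (-0.42, 0.0115) and 1.37-fold higher in wild-type line 1 (0.45, 0.00927). The last rests on 1 array: the arrays of wild-type line 1 read 6.88 and 7.40, and without replicate 2 the difference was 0.19 (limma adjusted p = 0.237; range 0.000825 to 0.237). The calls in wild-type line 2 were lost without either of its arrays (0.0901 and 0.0615; range 0.00123 to 0.0901), and that in constitutively active line 3 without replicate 1 (0.0599; range 0.000507 to 0.0599). With median scaling and both arrays, the Bcl2l11 call in wild-type line 1 was lost as well (0.40, limma adjusted p = 0.128). In the deposited log2 values the Bcl2l11 differences were -0.18 in wild-type line 2 and -0.20 in constitutively active line 3. At 6.40 to 7.14 this probe was the dimmest of those tested, and the offset of the background correction makes folds of dim probes too small. The other Bcl2l11 probe was detected on 4 of 12 arrays.

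Bad and Bcl2l2 varied less. Bad read 9.63, 9.19 and 9.31 on average in wild-type lines 1 to 3 and 9.08, 8.94 and 9.25 in constitutively active lines 1 to 3. Bad was 1.39-fold higher in wild-type line 1 (0.48 ± 0.09, SE, limma adjusted p = 0.00148) and 1.28-fold lower in constitutively active line 2 (-0.35, 0.00822). With median scaling neither passed (limma adjusted p = 0.113 and 0.994; ranges 0.000299 to 0.113 and 0.00372 to 0.994), and its F test over 6 lines gave 0.153 (range 0.000642 to 0.153). The calls were also lost without replicate 1 of the line concerned (0.34, limma adjusted p = 0.0553, in wild-type line 1 and -0.29, 0.0987, in constitutively active line 2). Bcl2l2 line means were 11.25, 10.91 and 11.13, and 10.84, 11.39 and 11.11. It was 1.27-fold higher in constitutively active line 2 (0.34 ± 0.08, SE, limma adjusted p = 0.00598), which held in 19 alternatives with values from 0.27 to 0.70, the latter with median scaling. Its lower levels in constitutively active line 1 (-0.32) and wild-type line 2 (-0.23) were lost in 2 and 13 of 19 alternatives, with adjusted p up to 0.402 (median scaling) and 0.328 (without replicate 1 of wild-type line 2). Without replicate 1 of constitutively active line 1 its difference there was -0.21 (0.168). The other kept Bcl2l2 probe did not pass over 6 lines (limma adjusted p = 0.0546). Nor did that probe pass in constitutively active line 2 against the other lines (0.19, limma adjusted p = 0.121, every kept probe tested).

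Mcl1, whose short-lived protein many epithelial cells depend on, read 11.13 and 11.18, 11.35 and 11.18, and 11.09 and 11.24 in wild-type lines 1, 2 and 3. In constitutively active lines it read 11.12 and 10.91, 11.14 and 11.00, and 11.31 and 11.27. No line lay apart from all the others, and the widest gap between arrays of 1 line was 0.21 against a range of 0.28 between line means. Bak1, which encodes a pore-forming death protein, lay near background, with line means from 5.85 to 6.44.

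Survival and death members were set side by side as the mean departure of each group of 4 tested genes from its own mean over the 6 lines, given as a description with no test. Survival members stood at 0.15, -0.13 and -0.03 in wild-type lines 1 to 3 and at 0.17, 0.08 and -0.24 in constitutively active lines 1 to 3. Death members stood at -0.08, 0.06 and 0.18, and at -0.20, 0.23 and -0.19. The difference between the groups was positive in line 1 of both genotypes (wild-type 0.23, constitutively active 0.37) and negative in wild-type lines 2 and 3 (-0.19 and -0.21) and constitutively active lines 2 and 3 (-0.15 and -0.05). In the main setting both genotypes thus held lines of either sign. In constitutively active line 3 both groups were low, each through genes named above, Bcl2, Bcl2l1, Bik and Bcl2l11. Single genes carried the difference: without Bid it was -0.09 in wild-type line 1, and without Bik it was 0.10 in constitutively active line 2. Over 13 settings it kept its sign in constitutively active line 1 (0.13 to 0.52) and in wild-type lines 2 (-0.33 to -0.08) and 3 (-0.25 to -0.11). The sign changed in wild-type line 1 (-0.09 to 0.39) and in constitutively active lines 2 (-0.33 to 0.10) and 3 (-0.28 to 0.18). Within a genotype, the lines that kept their sign all had the same one.

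**Figure D5:**
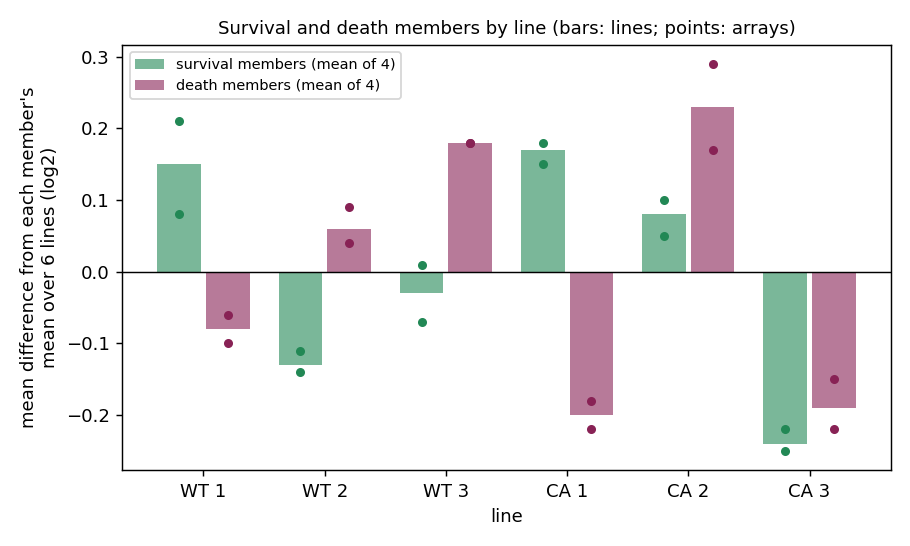
Mean departure of the 4 tested survival members (green) and the 4 tested death members (purple) from each gene's mean over 6 lines (log2; WT, wild-type; CA, constitutively active); bars are lines and points arrays. Survival exceeds death members in WT 1 and CA 1, death exceeds survival members in WT 2, WT 3 and CA 2, and both are low in CA 3.

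For the 3 members with the widest range, the tested genes with the most similar line means were found by Pearson correlation over 6 lines that share arrays and normalization, as a description. The values are the highest among the 7306 genes tested, so their size follows in part from that selection. A link between the genes was not tested. Bid was most like Mylk (0.976), Cav1 (0.971) and Lgals3bp (0.970). Mylk, a myosin kinase gene of contractile cells, stood at 5.64 in wild-type line 1, where Bid was lowest, and at 7.15 to 8.91 in the other lines. Cav1, which encodes caveolin 1, stood at 4.80 there and at 6.24 to 8.66 elsewhere. Its 4.80 lies at the level of the Bcl2 probes detected on no array (line means 4.56 to 5.13). Bik was most like Pip4k2c (0.973), Prss12 (0.969) and Tle1 (0.967), and Prss12 stood at 9.25 in constitutively active line 2 and 7.57 in line 3. Bcl2, by its tested probe, was most like Ddb1 (0.988), Evi5l (0.978) and Arhgef12 (0.978), which spanned only 0.22 to 0.53 log2 units.

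The other genes of the death pathway came from 6 lists, with 66 symbols, of which 57 had a probe and 27 were tested. None of the 27 passed between genotypes by limma's test, and 1, Pim3, had an unadjusted p under 0.05 (log2 difference 0.44, adjusted p = 0.854). The line means of the genotypes did not overlap for 4 of the 27, namely Casp8, Bcl2l13, Vdac1 and Vdac2. This share was near the 12.4% of all genes. For each of them, the nearest line means of opposite genotypes lay closer than the SD between arrays of a line (0.09 to 0.11). Those means were 10.08 and 10.14 for Casp8, and 10.62 and 10.56 for Vdac2. The median log2 difference of the 27 genes was 0.05, with 17 nominally higher and 10 lower in constitutively active lines. Over the 6 lines 23 of 27 passed the F test, against 77.6% of all genes, and 3, Bok, Tnfsf10 and Vdac2, had a range above 1 log2 unit, against 20.4% of all genes. The counts of the single lists below are to be read against the same 77.6%.

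Among other BCL2 family genes, 4 of the 13 with a probe were tested and all 4 passed the F test over the lines (77.6% of all genes did), while 8 were detected on no array, among them Bbc3 and Pmaip1, which encode the p53-induced BH3-only proteins PUMA and NOXA. Bok, which encodes a relative of BAX and BAK, stood at 7.79 in wild-type line 2 and at 6.91 and 6.73 in lines 1 and 3, and at 6.87, 7.46 and 7.72 in constitutively active lines 1 to 3. Bnip3l, a gene of mitochondrial clearance, ran from 9.97 in constitutively active line 1 to 10.79 in line 2. Bcl2a1b, a survival gene with near-identical copies that its probes may not tell apart, ran from 9.22 in wild-type line 2 to 9.96 in line 1.

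Of the apoptosome and released mitochondrial proteins 3 of 4 tested genes varied over the lines. Apaf1, the scaffold of the apoptosome, ran from 8.94 in constitutively active line 2 to 9.70 in line 1. Endog, a mitochondrial nuclease, ran from 8.06 in wild-type line 2 to 8.82 in constitutively active line 3. The probes of Htra2, a mitochondrial protease, disagreed: the brightest ran from 9.93 in wild-type line 2 to 10.56 in constitutively active line 1, whereas ILMN_1230193 and ILMN_2688944 were highest in constitutively active line 3 (9.05 and 8.27), and ILMN_1230193 placed constitutively active line 1 (8.74) below every wild-type line. Of 4 caspases tested 3 varied. Casp1, the inflammatory caspase, was lowest in wild-type line 1 (11.60) and highest in constitutively active line 3 (12.27). Casp8, which cleaves BID, stood at 10.06 to 10.08 in wild-type lines and at 10.14, 10.18 and 10.60 in constitutively active lines, without overlap (log2 difference 0.24, limma adjusted p = 0.898). Casp6, an executioner caspase, ran from 10.90 to 11.30.

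Of 6 inhibitor of apoptosis genes with a probe 5 were detected on no array, and Birc5, which encodes survivin and is also a mitosis gene, ran from 11.72 in constitutively active line 2 to 12.23 in wild-type line 3. In the death receptor pathway 4 of 5 tested genes varied. Tnfsf10, which encodes the death ligand TRAIL, stood at 8.25 in constitutively active line 2 and 6.95 in line 3, the lines in which Bik was also highest and lowest. Tnfrsf10b, its mouse receptor gene, ran from 7.49 in constitutively active line 1 to 8.42 in line 3, and Tradd, an adaptor of tumour necrosis factor receptor 1, from 7.49 in wild-type line 2 to 8.08 in line 1.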

How the data were processed

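The deposited raw table holds, per the file headers, a linear intensity per probe, with its detection value, for 46632 probes on 12 arrays. The deposited detection value is a fraction from 0 to 1 that rises with the signal, and 1 minus it served as the detection p. The deposited log2 values of the same arrays (medians 7.01 to 7.02, Pearson correlation with log2 raw signals 0.988 to 0.998) served as an alternative, and the sources used here do not say how they were corrected and normalized. BeadStudio 3.1.7 and lumi are named per the submitters' processing notes. The number of arrays limits the precision.

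Raw signals were background-corrected, quantile-normalized and put on the log2 scale with neqc (offset 16) of limma 3.58.1 in R 4.3.3. Gene symbols came from the platform annotation (29976 probes with 1 symbol, 10 with several, 16646 unnamed here), updated through Entrez identifiers to a RefSeq table of GRCm38.p6, which 29921 probes matched. Genes with several kept probes were tested by the brightest one. Genotypes were compared over line means, and lines over arrays, with limma (lmFit, eBayes, two-sided) across all 7306 genes with Benjamini-Hochberg adjustment. The fits were tested on simulated data with noise between arrays only. The genotype fit was therefore not tested under a spread between lines of a genotype. The members, lists and tests were chosen with earlier results of these data known. Named other genes are the 3 of each list with the widest range among those past the F test, and the 3 most similar genes of the 3 most variable members. Bbc3, Pmaip1, Pim3, Bcl2l13 and Vdac1 were named after their values were seen.

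Alternatives were the deposited values, median scaling, no background correction, other filters and probe choices, other error models, a replicate block and leaving out lines or arrays.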

Additional observations from a re-analysis of the deposited data

How the results depend on the processing

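No member passed between genotypes under any alternative run. Over all genes the count of 0 became 156 with the 12 arrays taken as independent and ran from 0 to 2 with 1 line left out (2 without wild-type line 2). Genes at an unadjusted p under 0.05 numbered 410, and 883 with median scaling, 1274 with no filter, 1410 with arrays as independent and 194 to 523 with 1 line left out (194 without wild-type line 1). Genotype differences with 1 line left out ran from -0.39 to 0.45 for Bcl2, -0.19 to 0.24 for Bcl2l1, -0.12 to 0.15 for Bcl2l2, -0.39 to 0.39 for Bid, -0.71 to 0.23 for Bik and -0.28 to 0.08 for Bcl2l11. Median scaling called 3 members and 1778 genes among wild-type lines and 2746 genes among constitutively active lines, turned the Mcl1 genotype difference to 0.18, and put Bad in constitutively active line 2 at 0. The cause was not tested. With 1 array left out, 3 to 6 members were called among wild-type lines, with 3 reached without replicate 1 of wild-type line 1 or of line 2, and 4 to 7 among constitutively active lines. The lone array of a line was then assumed to vary like the others. The survival minus death difference in constitutively active line 3 was 0.02 with median scaling. Without Bcl2, Bid or Bad, alternatives chosen after seeing the data, it was 0.13, 0.18 and 0.02; wild-type line 1 gave -0.09 without Bid, and constitutively active line 2 gave 0.10 without Bik.

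With the replicate number as a block (replicate block), 7 members and 5535 genes were called over 6 lines, 5 members and 3292 genes among wild-type lines, 6 members and 4376 genes among constitutively active lines, and 21 of 48 line contrasts; the lost call was Bcl2l2 in wild-type line 2 (-0.23, limma adjusted p = 0.0558). The labels do not say what the numbers share, and deviations of same-numbered arrays correlated from -0.26 to 0.31 between lines, so the numbers were not taken to pair the arrays.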

Other observations

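The regulators and partners of BCL2 family proteins, the remaining list of the pathway, had 9 of 16 genes with a probe tested, of which 8 passed the F test over the 6 lines (77.6% of all genes did) and none passed between genotypes. Vdac2, which encodes an outer mitochondrial membrane channel that binds BAK, stood at 10.62, 10.75 and 10.63 in wild-type lines 1 to 3 and at 9.61, 10.09 and 10.56 in constitutively active lines 1 to 3. Every constitutively active line was lower (log2 difference -0.58, interval -1.18 to 0.02, limma adjusted p = 0.854), which was not past the threshold. Constitutively active line 3 was lower than wild-type line 1 by less than the SD between arrays of a line (0.11). The relative of Vdac2, Vdac1, moved the other way by 0.12, also without overlap of the lines (adjusted p = 0.904). Its nearest lines too lay closer than the SD between arrays (0.09). Fbxw7, a ubiquitin ligase component that targets MCL1, stood at 10.52 in constitutively active line 2 and 9.54 in line 3. Ddit3, the stress factor CHOP that can induce Bcl2l11, ran from 8.44 in wild-type line 3 to 9.23 in constitutively active line 3. Bcl2l11 stood at 6.40 in constitutively active line 3 and at 6.41 in wild-type line 2, and a link between the genes was not tested.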
